A study of Rattus norvegicus with 9 samples.

Results

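The metabotropic glutamate receptor genes Grm2, Grm3, Grm4, Grm5, Grm7 and Grm8 were followed through the frontal cortex of rats that had been separated from their mothers as pups, with or without later electroacupuncture (EA). The members were taken by name from the deposited table, in which each had 1 row, so that 6 genes were described out of 37209. All 6 were among the 16837 genes with enough reads to be tested. The Control group held 3 male Wistar rats left with their mothers until weaning. The 3 rats of the maternal separation (MS) group had spent 4 h of each day away from the dam between postnatal day (PND) 1 and PND 21. The 3 rats of the MS+EA group had the same separation and then received EA at the acupoints Baihui and Yintang between PND 61 and PND 81. Control and MS rats were given the anesthesia of those sessions without needles, so anesthesia was shared by all groups, while rats with sham EA were not among those sequenced. The labels give the brain frontal cortex as the tissue and 14 weeks as the age of every rat.

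Metabotropic glutamate receptors are G protein-coupled receptors that tune synapses rather than carry fast current. Group I receptors, here Grm5, couple to Gq and phospholipase C and sit largely on the postsynaptic side. Group II receptors, Grm2 and Grm3, and group III receptors, Grm4, Grm7 and Grm8, couple to Gi/o, lower cyclic AMP and mostly restrain transmitter release. Grm3 is also made by astrocytes, and in the retina the remaining group III receptor, Grm6, serves bipolar cells. In the cortex these receptors are studied as targets for drugs against anxiety, depression and psychosis.

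The libraries held between 16153292 and 19007907 counts in Control rats, between 16106381 and 17243320 in MS rats, and between 12479905 and 14913736 in MS+EA rats. Every MS+EA library was thus smaller than every other one, and depth and treatment cannot be told apart in comparisons with that group. Expression is given as CPM, counts scaled to a common library size, by the TMM method, group means are given ± SD (n = 3 rats in every group), and since no transcript lengths were used here, levels were compared between rats and not between genes. The tissue label was checked against lists of marker genes, from which the genes named here were picked after their values were seen. Slc17a7, the vesicular glutamate transporter of cortical excitatory neurons, lay between 1225 and 1635 CPM in all rats, and the cerebellar marker Cbln3 had at most 9 reads in any rat. The 4 tested cerebellar granule cell markers summed to 40.8 CPM in the MS rat B4, where Fat2 had 180 reads, against 15.9 to 28.9 CPM in the other rats. The olfactory bulb markers Eomes and Tbx21 were too low for the test but not evenly so. Eomes had 65 reads in C3 and 22 in C16, against at most 8 in the other rats, and Tbx21 had 20 in C3 and 4 in C16, against at most 2. The MS+EA rat C3 stood apart in several marker sums. It had 5265 CPM summed over 7 neuronal genes, against 6042 to 6793 in the other rats. Over 8 oligodendrocyte genes it had 4321 CPM, against 1922 to 3339 in the other rats. The 4 other olfactory bulb genes summed to 67.1 CPM in C3 against 11.9 to 32.8, the upper value being that of C16. Cdhr1 alone made up 57.0 CPM of this sum in C3 and 24.5 CPM in C16. Th (1.46 CPM) and Sp8 (3.68 CPM) in C3 did not exceed the highest Control rat (2.07 and 3.91 CPM). The part of these cell types in the results below was not tested, and in bulk tissue fewer cells of a type and less RNA per cell cannot be told apart.

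None of the 6 receptor genes passed the test in any comparison, and their levels overlapped between all groups. A gene was called at a Benjamini-Hochberg adjusted p under 0.05 in edgeR's quasi-likelihood test together with a change of more than 1.5-fold. Between MS and Control rats 0 of the 6 members were called, where 0.0238% of all tested genes were. Between MS+EA and MS rats the count was 0 of 6 against 0.0178% of all genes, and between MS+EA and Control rats it was 0 of 6 against 1.37%. Even at an unadjusted p under 0.05 the members gave 0 in each comparison, where 10.6%, 12.4% and 22.5% of all genes passed for MS against Control, MS+EA against MS and MS+EA against Control. Groups that did not overlap were also absent among the members in all 3 comparisons, while 17.6%, 17.9% and 25.9% of all genes had such groups. With only 6 members, 0 is not far from what these backgrounds give. DESeq2 called 0 of the 6 in each comparison as well. C3 was the rat highest in Eomes, Tbx21, Cdhr1 and the summed oligodendrocyte markers. Without it still 0 were called. Between MS+EA and MS rats, 1 member (Grm8) then had an unadjusted edgeR p under 0.05. Between MS+EA and Control rats 2 had one (Grm3 and Grm8). Such a p was also reached by Grm5 between MS+EA and MS rats without C10 (log2 fold change -0.18) and by Grm3 between MS+EA and Control rats when libraries were scaled by total counts (log2 fold change 0.17).

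**Figure D1:**
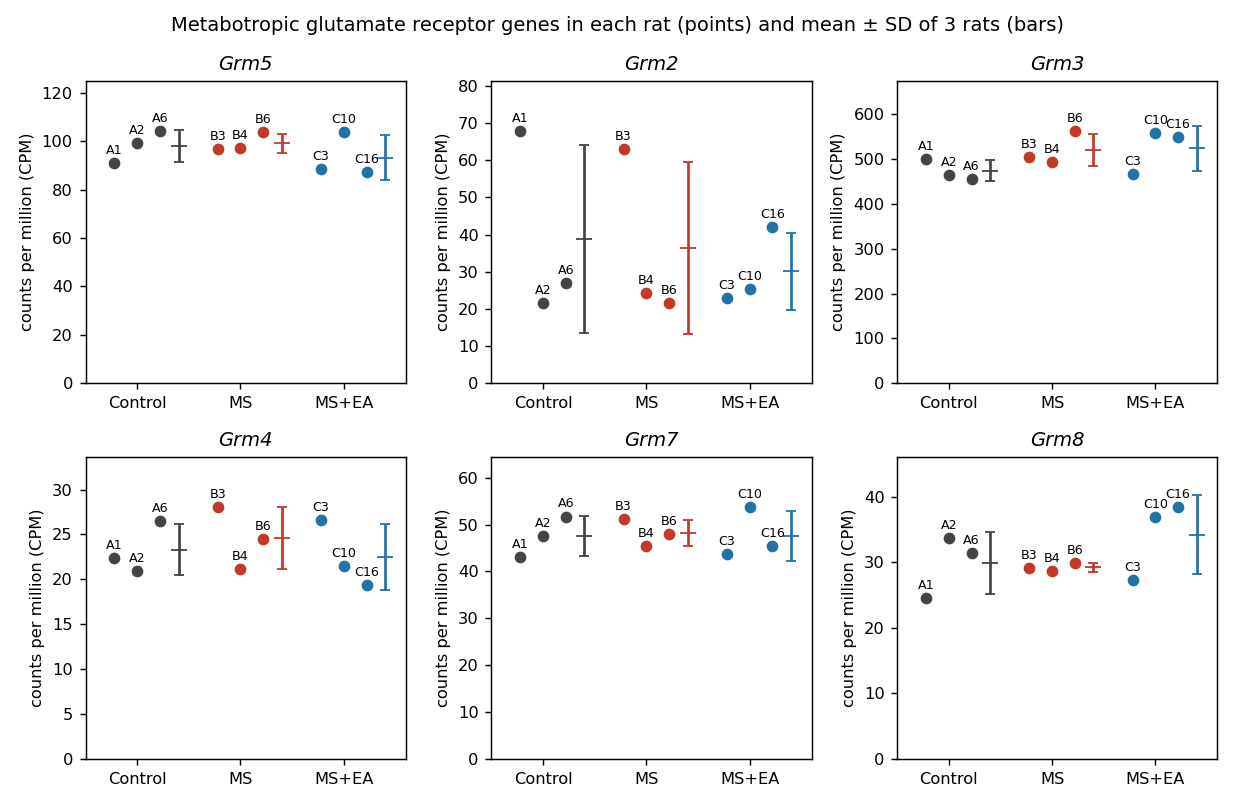
CPM (vertical axis, from 0) of the 6 receptor genes in each of the 9 rats, with Control, MS and MS+EA rats along the horizontal axis, points for rats and bars for the mean ± SD of 3 rats. The groups overlap for every gene, and for Grm2 the rats A1 and B3 stand at 67.8 and 63.0 CPM above the others.

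The data bounded the size of any change for 5 of the 6 genes. The 95% interval of the fold change lay inside 1.5-fold in both directions for Grm3, Grm4, Grm5, Grm7 and Grm8 in each comparison. Over all tested genes this held for 60.3% between MS and Control rats, 59.4% between MS+EA and MS rats, and 55.6% between MS+EA and Control rats. For Grm2 it held in none of the 3 comparisons, so that its intervals do not exclude a change of that size with these rats. Each interval stands for 1 gene and 1 comparison and was not widened for their number. Intervals with a rat left out are not given here. Without C3 the log2 fold change of Grm8 rose to 0.37 for MS+EA against MS and 0.34 for MS+EA against Control rats, so its bound may depend on that rat.

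**Figure D2:**
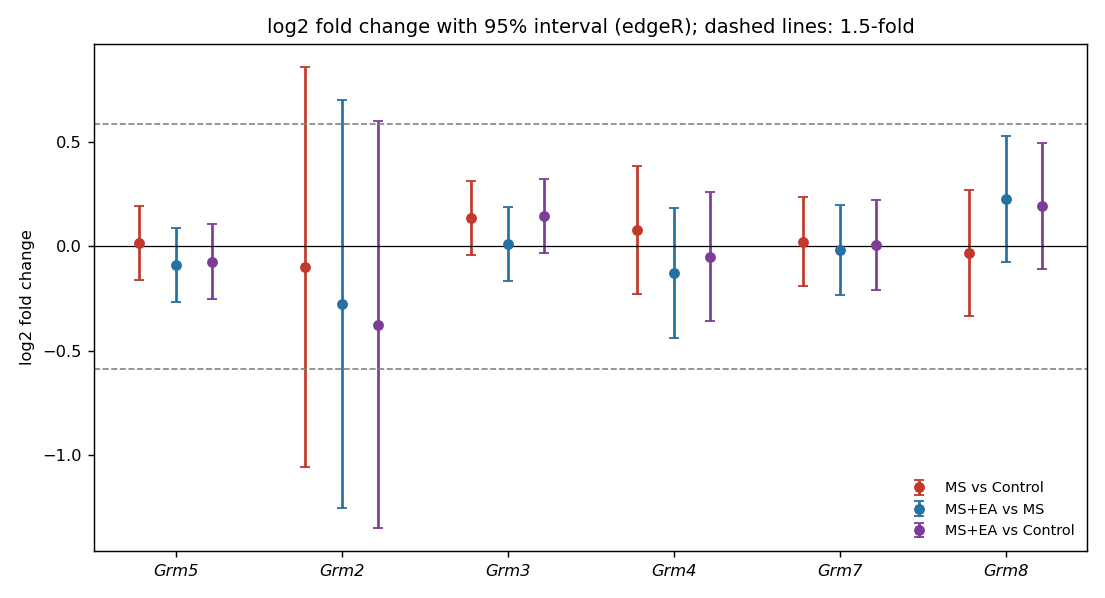
The log2 fold change (vertical axis) of each receptor gene (horizontal axis) in the 3 comparisons, with 95% intervals from edgeR as bars and dashed lines at 1.5-fold. Only the intervals of Grm2 cross the dashed lines, reaching from -1.35 to 0.60 between MS+EA and Control rats.

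Grm5 encodes mGlu5, the Gq-coupled receptor of the postsynaptic density that is linked to NMDA receptors through Homer and Shank proteins. Its level was 90.9, 99.4 and 104 CPM in A1, A2 and A6 of the Control group, 96.6, 97.3 and 104 CPM in B3, B4 and B6 of the MS group, and 88.5, 104 and 87.3 CPM in C3, C10 and C16 of the MS+EA group. The highest values of the groups were nearly equal, and the low values in C3 and C16 set the order of the means. In descending order these were 99.2 ± 3.89 CPM in MS rats, 98.1 ± 6.67 CPM in Control rats and 93.2 ± 9.25 CPM in MS+EA rats, and neither neighbouring pair differed beyond its spread. Between MS and Control rats the log2 fold change was 0.02 with a 95% interval from -0.16 to 0.19 (edgeR adjusted p = 0.968). Between MS+EA and MS rats it was -0.09 with an interval from -0.27 to 0.09 (edgeR adjusted p = 0.693), and between MS+EA and Control rats -0.07 with an interval from -0.25 to 0.10 (edgeR adjusted p = 0.646).

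Grm3 encodes mGlu3, the group II receptor found on astrocytes as well as neurons and responsive to the peptide transmitter N-acetylaspartylglutamate (NAAG). Its level was 501, 465 and 456 CPM in A1, A2 and A6 of the Control group, 506, 494 and 562 CPM in B3, B4 and B6 of the MS group, and 466, 558 and 549 CPM in C3, C10 and C16 of the MS+EA group. Most separated rats thus lay at the upper end, but B4 and C3 fell within the Control range. The mean was 524 ± 50.5 CPM in MS+EA rats, 521 ± 36.3 CPM in MS rats and 474 ± 23.6 CPM in Control rats. The log2 fold change was 0.14 for MS against Control rats, with an interval from -0.04 to 0.31 (edgeR adjusted p = 0.580). It was 0.15 for MS+EA against Control rats, with an interval from -0.03 to 0.32 (edgeR adjusted p = 0.316), and 0.01 for MS+EA against MS rats (edgeR adjusted p = 0.975). Without C3, the rat with the high oligodendrocyte markers, the difference between MS+EA and Control rats was 0.23 (edgeR adjusted p = 0.0922), the smallest adjusted p of any member in any setting tried. The 9 astrocyte markers summed to 4695 to 5625 CPM in Control rats, 5142 to 5499 in MS rats and 4453 to 5294 in MS+EA rats, so that their groups overlapped too.

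Grm2 encodes mGlu2, the group II autoreceptor of cortical glutamatergic terminals. It varied between rats more than any other member, and the variation did not follow the groups. Its level was 67.8, 21.6 and 26.9 CPM in A1, A2 and A6 of the Control group, 63.0, 24.3 and 21.6 CPM in B3, B4 and B6 of the MS group, and 22.9, 25.5 and 42.0 CPM in C3, C10 and C16 of the MS+EA group. A single rat in each group was high and the others lay close together. The reads behind these values were 1266 in A1, 1080 in B3 and 528 in C16, against 330 to 432 in the other rats, so the gap is far beyond counting error. From the lowest rat to the highest the level spanned 3.14-fold, where the other members spanned from 1.19-fold for Grm5 to 1.56-fold for Grm8.

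The group means of Grm2 rested on these rats. They were 38.7 ± 25.3 CPM in Control rats, 36.3 ± 23.2 CPM in MS rats and 30.1 ± 10.4 CPM in MS+EA rats, which do not differ beyond their spread. The log2 fold change for MS against Control rats was -0.10 over all rats (edgeR adjusted p = 0.962, SE 0.441), 0.58 without A1 and -0.76 without B3. For MS+EA against MS rats it was -0.28 (edgeR adjusted p = 0.842) and turned to 0.39 without B3, and for MS+EA against Control rats it was -0.37 (edgeR adjusted p = 0.671) and turned to 0.31 without A1. The direction of the Grm2 difference thus changed with single rats.

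**Figure D3:**
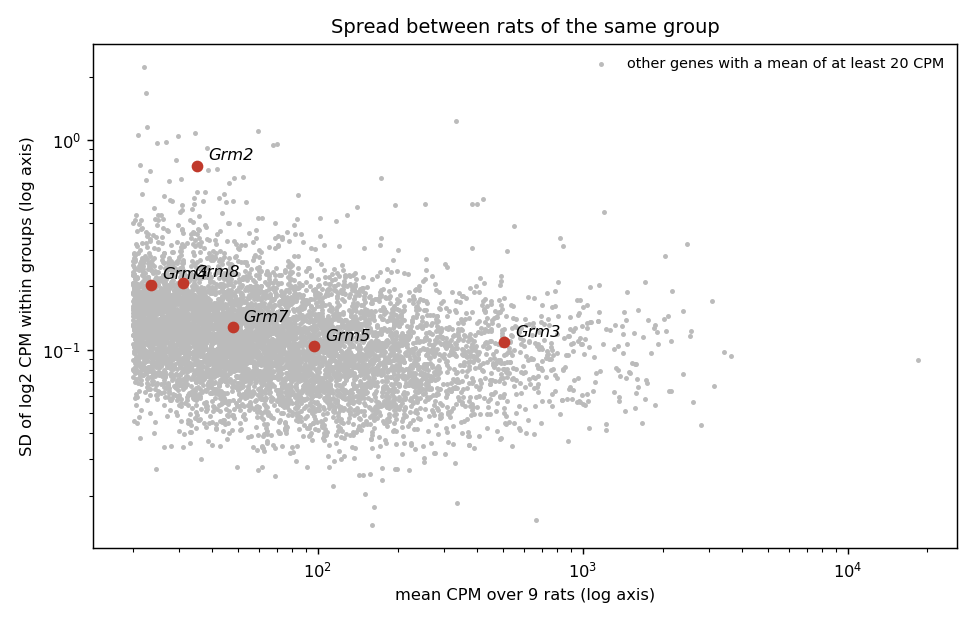
Standard deviation of log2 CPM between rats of the same group (vertical log axis) against mean CPM (horizontal log axis) for 7413 genes with a mean of at least 20 CPM, with the 6 receptor genes in red. Grm2 lies at 0.75, above nearly all genes, and Grm5, Grm3 and Grm7 lie close to the median of 0.109.

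Against the transcriptome, the spread of Grm2 was unusual and that of the other members was not, or less so. The SD of log2 CPM within groups was 0.75 for Grm2, and only 15 of the 7413 genes with a mean of at least 20 CPM, or 0.202%, had a larger one. Grm4 and Grm8 had 0.20 and 0.21, with 7.80% and 7.22% of these genes above them. Grm7, at 0.13, Grm3, at 0.11, and Grm5, at 0.10, were close to the median of 0.109, with 35.5%, 50.1% and 54.0% of the genes above them. The limit of 20 CPM was set after the values were seen, to keep all members in.

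Expressed against Grm3 within the same rat, a ratio that does not depend on scaling, there were 13.5 Grm2 reads per 100 Grm3 reads in A1, 12.5 in B3 and 7.65 in C16. The other rats had between 3.84 and 5.89. The same rats were thus high on this measure. From its lowest rat to its highest, Grm3 spanned only 1.23-fold in CPM. The ratio thus largely repeats the Grm2 reads and is not a separate measure of them. The group means of the log2 ratio were -3.80 ± 0.810 in Control, -4.02 ± 0.895 in MS and -4.17 ± 0.403 in MS+EA rats. Exact two-sided permutation tests gave p = 0.6 for MS against Control, p = 0.8 for MS+EA against MS and p = 0.6 for MS+EA against Control, where 3 rats against 3 allow no p under 0.1.

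The genes whose levels over the 9 rats were most like those of Grm2 were Pop7, a subunit of RNase P, with a Pearson r of 0.91, Yipf2, a protein of Golgi and endosomal membranes, with 0.91, and E2f1, a transcription factor of the cell cycle, with 0.89. Their Spearman rho was 0.95, 0.82 and 0.88. With A1 and B3, the rats farthest from the median, left out, r was 0.69 for Pop7, 0.83 for Yipf2 and 0.54 for E2f1, so that the likeness rested in part on those rats. These genes spanned only 1.31-fold, 1.27-fold and 1.53-fold between their lowest and highest rats. They were picked from all 16837 tested genes for being alike, and the rats share their libraries' depth and composition.

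The tested protein-coding genes nearest to Grm2 in the RefSeq order of the GRCr8 assembly did not share its pattern in full. On either side, Tex264, a receptor for autophagy of the endoplasmic reticulum, spanned 1.54-fold with A1 highest at 36.2 CPM, and Rrp9, a factor of ribosomal RNA processing, spanned 1.35-fold. Rad54l2, beyond Tex264, spanned 1.19-fold, and Parp3, beyond Rrp9, spanned 3.35-fold with C16 highest at 6.28 CPM and C10 lowest at 1.88 CPM. Their r with Grm2 was 0.52, 0.05, 0.48 and 0.38. These neighbours were looked up after the values of Grm2 had been seen. A1 and B3 together held the highest values in 476 of the 16837 tested genes, or 2.83%. The shares of other pairs of rats were not computed, so this count alone does not show a pattern shared by A1 and B3. Only 2 genes, a count that can include Grm2 itself, had a ratio of the second highest rat to the third at least as large as that of Grm2. The summed oligodendrocyte markers were highest in A1 among Control rats, at 3339 CPM, and in B3 among MS rats, at 2993 CPM. In the MS+EA group they were at 4321 CPM in C3 and 3168 CPM in C16, where Grm2 was at 22.9 and 42.0 CPM. Eomes had 7 reads in A1, 7 in B3, 22 in C16 and 65 in C3. It had 8 reads in A2, where Grm2 was at 21.6 CPM. The neuronal markers summed to 6042 to 6179 CPM in Control rats, with A1 highest. They summed to 6217 to 6793 CPM in MS rats, with B3 at 6409 and B6 highest, and to 5265 to 6572 CPM in MS+EA rats, with C16 at 6346 and C3 lowest. The relation of these marker levels to Grm2 was not tested.

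**Figure D4:**
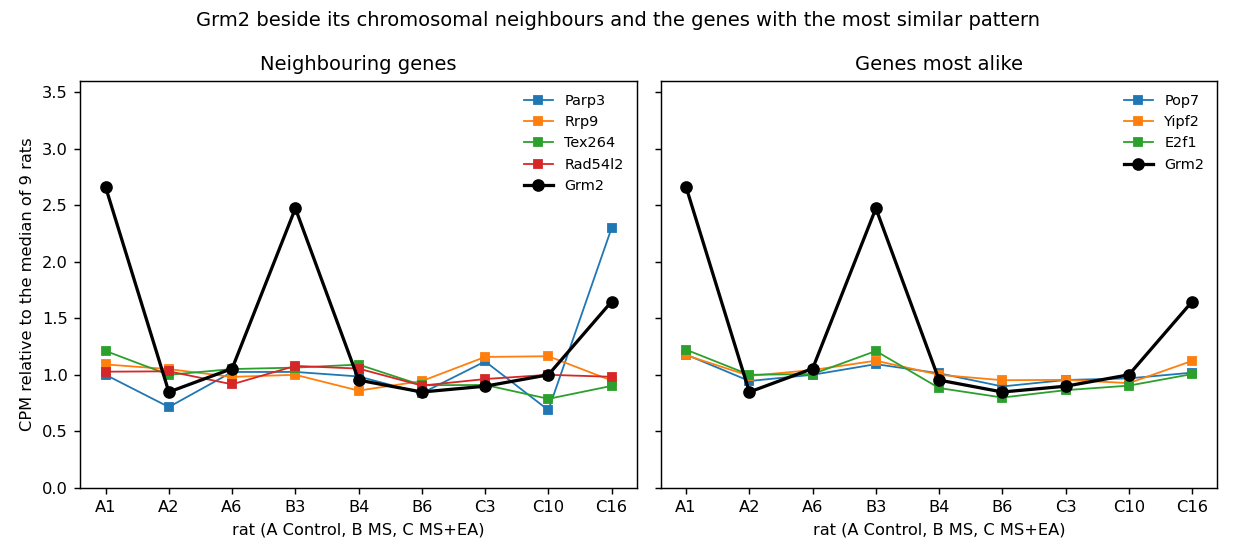
CPM relative to the median of the 9 rats (vertical axis, from 0) in each rat (horizontal axis, A Control, B MS, C MS+EA), with Grm2 in black, its chromosomal neighbours on the left and the genes with the most similar pattern on the right. Grm2 is high in A1, B3 and C16. Among the neighbours, Tex264 is also highest in A1, at 1.21 times its median, and Parp3 is highest in C16, at 2.30 times its median. Rad54l2 and Rrp9 stay between 0.86 and 1.16 times their medians. The most similar genes are highest in A1 over a much smaller range than Grm2, with Pop7 and E2f1 close to their medians in C16.

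Among the group III receptors, Grm7 encodes mGlu7, which has low affinity for glutamate and sits in the active zone of nerve terminals. Its level was 43.2, 47.5 and 51.7 CPM in A1, A2 and A6 of the Control group, 51.1, 45.5 and 47.9 CPM in B3, B4 and B6 of the MS group, and 43.6, 53.7 and 45.5 CPM in C3, C10 and C16 of the MS+EA group. The ranges covered each other almost completely. The means were 48.2 ± 2.82 CPM in MS rats, 47.6 ± 5.38 CPM in MS+EA rats and 47.5 ± 4.27 CPM in Control rats. All 3 log2 fold changes lay between -0.02 and 0.02, and their 95% intervals reached from -0.23 to 0.24 at the widest, the narrowest among the group III genes.

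Grm8 encodes mGlu8, a presynaptic receptor of high glutamate affinity. Its level was 24.6, 33.7 and 31.3 CPM in A1, A2 and A6 of the Control group, 29.0, 28.6 and 29.9 CPM in B3, B4 and B6 of the MS group, and 27.3, 36.9 and 38.4 CPM in C3, C10 and C16 of the MS+EA group. C10 and C16 were the highest of all rats, but C3 lay below every MS rat. The mean was 34.2 ± 6.03 CPM in MS+EA rats, 29.9 ± 4.75 CPM in Control rats and 29.2 ± 0.632 CPM in MS rats. The log2 fold change for MS+EA against MS rats was 0.23 with an interval from -0.08 to 0.53 (edgeR adjusted p = 0.532), and 0.37 without C3 (edgeR adjusted p = 0.291). For MS+EA against Control rats it was 0.19 with an interval from -0.11 to 0.50 (edgeR adjusted p = 0.441), 0.34 without C3 and 0.0686 without A1, and for MS against Control rats -0.03 (edgeR adjusted p = 0.961).

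Grm4 encodes mGlu4, a presynaptic receptor best known from the cerebellum and basal ganglia. Its level was 22.4, 21.0 and 26.5 CPM in A1, A2 and A6 of the Control group, 28.0, 21.1 and 24.5 CPM in B3, B4 and B6 of the MS group, and 26.6, 21.5 and 19.4 CPM in C3, C10 and C16 of the MS+EA group. No group stood apart. The means were 24.6 ± 3.46 CPM in MS rats, 23.3 ± 2.86 CPM in Control rats and 22.5 ± 3.69 CPM in MS+EA rats. The log2 fold change was 0.08 for MS against Control rats (edgeR adjusted p = 0.889), -0.13 for MS+EA against MS rats (edgeR adjusted p = 0.754) and -0.05 for MS+EA against Control rats (edgeR adjusted p = 0.882). The deposited table types Grm4 as ncRNA while it types the other members as mRNA. RefSeq for GRCr8 lists Grm4 as protein-coding, as it does 86 of the 966 genes of type ncRNA whose names it holds, and which transcripts of Grm4 were counted was not tested.

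Grm6, which is not a member, was looked at only for completeness. It had 40 to 60 reads per rat and 2.50 to 3.63 CPM, and it was not called in any comparison.

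The members did not vary together strongly across the 9 rats. Of their 15 pairs, 10 had a Pearson r above 0, and r lay between -0.51, for Grm4 and Grm8, and 0.78, for Grm5 and Grm7. The latter pair had a Spearman rho of 0.82 and was the only one with an unadjusted p under 0.05 (exact permutation p = 0.0178 for r and 0.0108 for rho), but adjusted over the 15 pairs the p values were 0.267 and 0.162. With C16 and C3 left out, the rats farthest from the median of Grm5, r was 0.74. For deviations from the group means r was 0.84, with an exact permutation p of 0.0556 when rats were exchanged within their groups and 0.833 after adjustment. Only 216 such exchanges exist, so in this version a pair that stood alone could not reach an adjusted p under 0.05. Adjusted p values thus passed 0.05 for 0 of the 15 pairs.

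For the other members, too, the most similar genes were listed, as a description over 9 rats that share libraries and depth. Grm3 was most like Vcpip1, a deubiquitinase, with r = 0.97, Enah, an actin regulator, with r = 0.97, and Usp45, another deubiquitinase, with r = 0.96. Grm8 was most like Riiad1, with r = 0.96, Dnajc2, a ribosome-associated chaperone, with r = 0.94, and Dbr1, the enzyme that opens intron lariats, with r = 0.94. Grm7 was most like LOC103692443, with r = 0.96, Fancl, a ubiquitin ligase of the Fanconi pathway, with r = 0.95, and LOC102550150, with r = 0.94. For Grm5 these were LOC103692829, with r = 0.93, Zfyve27, with r = 0.93, and Dcaf6, with r = 0.92, and for Grm4 they were Stard13, with r = 0.92, Trpt1, with r = 0.91, and Tonsl, with r = 0.90. None of these genes is another receptor of the family. Genes with r above 0.8 numbered 262 for Grm3, 146 for Grm8, 113 for Grm5, 97 for Grm7, 72 for Grm4 and 29 for Grm2.

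Around the receptors, 5 lists of 61 gene symbols covered NAAG metabolism, receptor partners and scaffolds, the Gq and Gi/o pathways, and desensitization, and 58 of the symbols were tested. Against Control rats, MS rats had 0 of these genes called, where 0.0238% of all tested genes were. A further 4 had an unadjusted p under 0.05, 3 higher and 1 lower, which is 6.90% against the background of 10.6%. Between MS+EA and MS rats 0 were called, against 0.0178% of all genes. Here 13 had such a p, 3 higher and 10 lower, which is 22.4% against 12.4%. Between MS+EA and Control rats 1 of the 58 was called, against 1.37% of all genes, so that 1 is not far from what this background gives. In that comparison 19 had such a p, 3 higher and 16 lower, which is 32.8% against 22.5%. The median log2 fold change of the 58 genes was -0.03, -0.09 and -0.10 in these comparisons, where that of all tested genes was -0.001, 0.001 and 0.01. Among all tested genes with such a p between MS+EA and Control rats, 2008 were higher and 1779 lower. MS+EA rats enter both of the last comparisons.

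The gene called was Rimklb, which encodes a synthase of NAAG, a peptide agonist of mGlu3. Its level was 29.1, 27.4 and 31.5 CPM in A1, A2 and A6 of the Control group, 35.5, 41.7 and 39.6 CPM in B3, B4 and B6 of the MS group, and 43.2, 45.2 and 46.2 CPM in C3, C10 and C16 of the MS+EA group. The groups did not overlap in any comparison. Rimklb rose from 29.3 ± 2.08 CPM in Control rats to 44.9 ± 1.55 CPM in MS+EA rats, with a log2 fold change of 0.61 (edgeR adjusted p = 0.00706, SE 0.0902). MS rats stood between them at 38.9 ± 3.15 CPM, with a log2 fold change against Control rats of 0.41 (edgeR adjusted p = 0.129), and MS+EA rats were 0.21 above MS rats on the log2 scale (edgeR adjusted p = 0.372). The change of 0.61 is just past 1.5-fold, and without A2 it was 0.57 (edgeR adjusted p = 0.0252), under that threshold. Without C3 it was 0.64 (edgeR adjusted p = 0.00826). The other genes of this list, Rimkla, the second NAAG synthase, Folh1 and Naalad2, which cleave NAAG, and Nat8l, which makes its precursor, were not called in any comparison. Nat8l had 319 ± 18.2 CPM in MS+EA rats and 367 ± 38.0 CPM in MS rats (log2 fold change -0.20, edgeR adjusted p = 0.379).

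**Figure D5:**
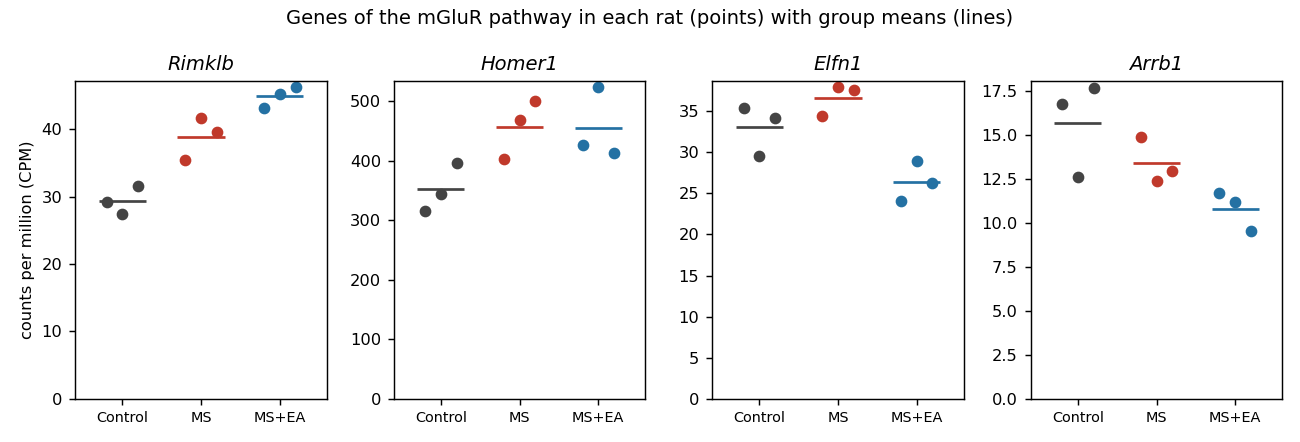
CPM (vertical axes, from 0) of Rimklb, Homer1, Elfn1 and Arrb1 in each rat (points), with lines at the means of the Control, MS and MS+EA groups (horizontal axis). Rimklb, the 1 gene of these called between MS+EA and Control rats, stands at 27.4 to 31.5 CPM in Control and 43.2 to 46.2 CPM in MS+EA rats, and the other genes had adjusted p values above 0.05.

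Of the 13 tested partners and scaffolds, 0 were called in any comparison, with 2, 4 and 7 at an unadjusted p under 0.05 for MS against Control, MS+EA against MS and MS+EA against Control. Homer1, the scaffold that ties group I receptors to the postsynaptic density and to calcium stores, had 316, 345 and 396 CPM in the Control rats and 402, 469 and 501 CPM in the MS rats. These groups did not overlap, with a difference of 0.38 in log2 units (edgeR adjusted p = 0.219, SE 0.111). In MS+EA rats Homer1 stood at 455 ± 60.1 CPM, with a log2 fold change of 0.37 against Control rats (edgeR adjusted p = 0.0710). Elfn1, the postsynaptic adhesion protein that recruits mGlu7 and other group III receptors across the synapse, had 24.1, 28.9 and 26.2 CPM in the MS+EA rats against 34.3 to 38.0 CPM in MS rats and 29.5 to 35.4 CPM in Control rats. All MS+EA rats were below all others, with log2 fold changes of -0.47 against MS rats (edgeR adjusted p = 0.184, SE 0.102) and -0.32 against Control rats (edgeR adjusted p = 0.0840). Shank2, a postsynaptic scaffold bound by Homer, had 57.2 ± 4.33 CPM in MS+EA, 67.5 ± 7.02 CPM in MS and 69.5 ± 1.75 CPM in Control rats (edgeR adjusted p = 0.0823 for MS+EA against Control). Elfn2, the relative of Elfn1, had 343 ± 15.6 CPM in MS and 396 ± 41.4 CPM in Control rats (log2 fold change -0.21, edgeR adjusted p = 0.343). Grip1, a multi-PDZ protein, had 38.7 ± 2.63 CPM in MS+EA and 33.3 ± 2.18 CPM in MS rats (edgeR adjusted p = 0.353).

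The Gq pathway through which Grm5 signals gave 0 called genes of 13 tested, with 1, 1 and 3 at an unadjusted p under 0.05 for MS against Control, MS+EA against MS and MS+EA against Control. Plcb1, the phospholipase C downstream of mGlu5 in the forebrain, had 17.1 ± 1.53 CPM in MS rats and 13.7 ± 1.60 CPM in Control rats, without overlap (log2 fold change 0.32, edgeR adjusted p = 0.394). In MS+EA rats it was at 14.4 ± 1.37 CPM. The 3 genes with such a p between MS+EA and Control rats were all at lower values in MS+EA rats. Gna11, a Gq-class alpha subunit, had 34.8 ± 3.33 against 43.0 ± 0.798 CPM (log2 fold change -0.30, edgeR adjusted p = 0.0624). Dagla, the enzyme that makes the endocannabinoid released after mGlu5 activation, had 175 ± 5.03 against 209 ± 17.3 CPM (log2 fold change -0.25, edgeR adjusted p = 0.0675).

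The Gi/o pathway of the group II and III receptors gave 0 called genes of 17 tested, with 0, 3 and 4 at an unadjusted p under 0.05 in the same order of comparisons. Gnai2, a Gi alpha subunit, had 138 ± 6.39 CPM in MS+EA and 166 ± 10.3 CPM in Control rats, without overlap (log2 fold change -0.26, edgeR adjusted p = 0.0750). Adenylyl cyclases are what these receptors inhibit. Adcy1 had 1072 ± 69.7 CPM in MS+EA, 1202 ± 44.6 CPM in MS and 1210 ± 67.4 CPM in Control rats (edgeR adjusted p = 0.168 for MS+EA against Control). Adcy8 had 22.1 ± 3.02 CPM in MS+EA and 27.6 ± 3.25 CPM in Control rats (edgeR adjusted p = 0.165). Kcnj6, a subunit of the potassium channels opened by Gi/o receptors, had 381 ± 21.7 CPM in MS+EA and 444 ± 5.87 CPM in MS rats (edgeR adjusted p = 0.300).

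Of the 10 tested genes of desensitization, 0 were called, with 0, 3 and 4 at an unadjusted p under 0.05 in that order, all of them at lower values in MS+EA rats. Arrb1, which encodes beta-arrestin 1, had 11.7, 11.2 and 9.54 CPM in C3, C10 and C16 of the MS+EA group and 16.8, 12.6 and 17.7 CPM in A1, A2 and A6 of the Control group. The groups did not overlap, with a difference of -0.53 in log2 units (edgeR adjusted p = 0.0592, SE 0.151). Adrbk1, which encodes the receptor kinase GRK2, had 278 ± 23.9 CPM in MS+EA, 332 ± 17.9 CPM in MS and 343 ± 30.1 CPM in Control rats (log2 fold change -0.30 against Control, edgeR adjusted p = 0.0525). Adrbk2 had 148 ± 4.15 CPM in MS+EA and 167 ± 4.41 CPM in Control rats (edgeR adjusted p = 0.116). Rgs4, a brake on Gq and Gi signalling, had 432 ± 62.1 CPM in MS+EA and 519 ± 47.2 CPM in MS rats (edgeR adjusted p = 0.323). Grk5, a further receptor kinase, had 83.3 ± 4.06 CPM in MS+EA and 94.8 ± 5.05 CPM in MS rats (edgeR adjusted p = 0.331).

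Some marker genes and lists also differed in level between the same groups. Slc17a7 had 1225 to 1337 CPM in MS+EA, 1436 to 1498 CPM in MS and 1532 to 1635 CPM in Control rats, and it fell by 0.30 on the log2 scale between MS+EA and Control rats (edgeR adjusted p = 0.0207), a difference under 1.5-fold. It was the 1 neuronal marker of 7 with an unadjusted p under 0.05 there, and the median log2 fold change of the 7 was 0.0526. Snap25, a protein of synaptic vesicle release, had 1991 to 2742 CPM in MS+EA, 2368 to 2690 CPM in MS and 2122 to 2181 CPM in Control rats. For Snap25 all MS rats lay above all Control rats (log2 fold change 0.26, edgeR adjusted p = 0.390), while MS+EA and Control rats overlapped. The 10 layer 6 markers summed to 265 to 318 CPM in Control, 236 to 250 CPM in MS and 263 to 280 CPM in MS+EA rats. The Control rats, which were lowest in Rimklb, were also lowest in the summed markers of endothelium and thalamus. The 6 endothelial markers summed to 227 to 252 CPM in Control, 269 to 311 CPM in MS and 260 to 290 CPM in MS+EA rats, and among them Abcb1a, the drug efflux pump of brain capillaries, had 55.9 ± 4.89, 71.4 ± 5.65 and 74.7 ± 4.87 CPM (edgeR adjusted p = 0.0224 for MS+EA against Control). The 5 thalamic markers summed to 177 to 181 CPM in Control, 195 to 229 CPM in MS and 205 to 214 CPM in MS+EA rats. Most of that sum was 1 gene, Rora, at 142 to 144, 154 to 174 and 160 to 177 CPM in the same order. Prkcd, a smaller part of it, had 14.8 to 18.8 CPM in Control and 18.7 to 26.5 CPM in MS+EA rats, which overlapped. The part of the endothelial and thalamic markers in the Rimklb difference was not tested. Of the receptor genes none followed these steps, since all members overlapped between all groups. Whether the lower values of pathway genes in MS+EA rats go with the level of Slc17a7 or with the smaller libraries was not tested.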

How the data were processed

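RNA of the frontal cortex was sequenced in 9 rats on an Illumina instrument after removal of rRNA. The authors used FastQC for read quality and HISAT2 (2.0.4 per the submitters' processing notes) for mapping, with Rnor_6.0 as the genome. They deposited raw counts of reads per gene, without normalization. The counting program, strand setting and handling of multi-mapped reads are not given in the sources used here. Each library was taken as 1 rat of the group in its label. No batch, date or pairing is given.

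Counts were analysed with edgeR 4.0.16 in R 4.3.3, using TMM factors, filterByExpr (10 counts) and the quasi-likelihood model of 3 group means over all 9 rats, with Benjamini-Hochberg adjustment over 16837 genes. CPM are relative to TMM-scaled library sizes, and log2 CPM used a prior count of 1. Standard errors (SE) were derived from the F statistic, and 95% intervals use the test's degrees of freedom. With 3 rats per group, the edgeR p values set a difference of group means against a spread between rats. That spread was estimated over the 3 groups together, with information from the other genes. The thresholds, adjusted p under 0.05 and over 1.5-fold, are those of the study's methods, which used EBSeq. Ratios and correlations were tested by exact permutation (362880 orders of the rats, or 216 within groups) in Python 3.11.15 with scipy 1.17.1 and numpy 2.4.6, and plots used matplotlib 3.10.9. The procedures were tested on simulated data.

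Alternatives were DESeq2 1.42.0, the likelihood ratio test, limma-trend (limma 3.58.1), RLE or total-count scaling, filters of at least 1 count or of 10 counts in every rat, the 6 rats compared alone, no fold threshold, and each rat left out. The members, lists and rules were chosen with earlier results of these data known. Named were the members, from each pathway list the called genes and up to 3 per comparison with the smallest p under 0.05, and the 3 genes most correlated with each member. Grm6, the neighbours of Grm2 and the markers cited for context were named after their values were seen. Neighbours and gene types came from RefSeq for GRCr8. Receptor sequences were not used here, and some genes that the rule names are not reported here.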

Additional observations from a re-analysis of the deposited data

How the results depend on the processing

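No paired analysis was possible because each rat belongs to 1 group and no label links rats across groups. Under all alternatives tried, 0 of the 6 members were called in each comparison, and 0 of the 15 member pairs passed after adjustment. For deviations from the group means, the 216 exchanges of rats kept any pair that stood alone from passing, so that version adds little. How far the number of rats or the depth of the libraries limited these calls was not tested. Under the 8 settings that kept all rats compared, 143 of 144 fold changes of the members kept their direction and their side of the thresholds. The exception was Grm7 for MS+EA against MS rats, at 0.0241 on the log2 scale with total counts, and the cause was not tested. With each of the 9 rats left out in turn, 23 of 162 changed sign. All 23 were fits without a rat of a compared group. The 162 also hold fits without a rat of the third group. Those leave both compared means nearly as they were, so the share of 23 in 162 understates how often the sign changed. With a rat left out, the Grm2 log2 fold change ranged over -0.76 to 0.58 for MS against Control, -0.59 to 0.39 for MS+EA against MS and -0.69 to 0.31 for MS+EA against Control. The log2 ratio of Grm2 to Grm3 ranged over -0.73 to 0.24, -0.49 to 0.35 and -0.68 to 0.0870 in the same order. Small differences that changed sign ranged from -0.0289 to 0.18 (Grm4), -0.0372 to 0.0596 (Grm5), -0.0425 to 0.0882 (Grm7) and -0.16 to 0.0593 (Grm8) for MS against Control. For MS+EA against MS they ranged from -0.0376 to 0.0948 (Grm3) and -0.11 to 0.0486 (Grm7), and for MS+EA against Control from -0.18 to 0.0584 (Grm4) and -0.0921 to 0.0777 (Grm7). Rimklb, for which the same settings were added after its value was seen, kept an adjusted p under 0.05 in each, between 2.31e-06 and 0.0404, and fell under 1.5-fold only without A2. Over all genes the number called moved with the setting. With a filter of at least 1 count it was 207, 72 and 469 in the same order, instead of 4, 3 and 230, while with 10 counts in every rat it was 5, 0 and 233. DESeq2 called 70, 37 and 316 genes, and the likelihood ratio test 119, 49 and 418. None of these calls was a member.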
